A study of Saccharomyces cerevisiae with 24 samples.

Results

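Budding yeast has 3 nuclear RNA polymerases, and the genes of their subunits are described here in cells exposed to 5 agents. The genes were taken by name, as every probe set with a single gene symbol that begins with RPA, RPB, RPC or RPO and a number, or that is RET1, with the brightest probe set standing for each gene. This gave 32 genes of the 5656 with a symbol, and all 32 passed the filter on low signal that 5171 of the 5656 genes passed. There were 7 genes of polymerase I (RPA190, RPA135, RPA49, RPA43, RPA34, RPA14 and RPA12), 7 of polymerase II (RPO21, RPB2, RPB3, RPB4, RPB7, RPB9 and RPB11) and 10 of polymerase III (RPO31, RET1, RPC82, RPC53, RPC37, RPC34, RPC31, RPC25, RPC17 and RPC11). RPC40 and RPC19 belong to polymerases I and III, and RPB5, RPO26, RPB8, RPB10 and RPC10 to all 3. RPO41 fits the naming rule but is the RNA polymerase of mitochondria, so it is described apart from the other 31.

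Polymerase I makes the large ribosomal RNA precursor in the nucleolus, polymerase II makes messenger RNAs, and polymerase III makes transfer RNAs, 5S ribosomal RNA and other small RNAs. Each has a core formed by a largest and a second-largest subunit, an assembly platform, a stalk of a subunit pair, and the set of small shared subunits. Genes of polymerases I and III are known in growing yeast for being regulated together with the genes of ribosome production, which dividing cells run at a high rate and stressed cells turn down.

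The cells were of strain BY4730, a haploid a-cell laboratory strain that lacks LEU2, MET17 and URA3, measured on one-colour Affymetrix S98 arrays after 120 min of exposure. There were 3 arrays with bleomycin, which breaks DNA strands (0.15, 0.1 and 0.15 U/ml for replicates 1, 2 and 3), and 3 with methyl methanesulfonate (MMS), which methylates DNA (0.12, 0.12 and 0.14%). Cisplatin, which crosslinks DNA, had 2 arrays (500 and 650 ug, with no volume stated), NaCl had 3 (10, 8 and 9%) and ethanol had 2 (15% each). The protocol text gives other amounts for cisplatin and NaCl, and which of them was used is unclear. The controls, 11 arrays from as many days, were cells given the solvent DMSO or left in medium, and the labels do not tell these apart. Each of the 13 treated arrays was set against the control array of its day, where the day of ethanol replicate 1 is assumed because its title gives another year. Arrays measure whole cultures, so fewer cells with a transcript and less of it per cell cannot be told apart.

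The arrays differed in the control probe sets along the actin transcript ACT1, taken as a sign of the state of the RNA. The ACT1 5′ signal averaged 8.65 on the log2 scale with MMS, against 5.28 in the same-day controls, a difference of 3.37. The mean difference was -0.01 with bleomycin, -2.76 with cisplatin, -2.12 with NaCl and -0.95 with ethanol. NaCl replicates 2 and 3 and control replicate 11, the control of MMS replicate 2, had ACT1 3′ signals of 7.98, 8.21 and 9.37, against at least 10.55 on every other array, and are called the low-3′ arrays. URA3 (3.45 ± 0.376), MET17 (3.91 ± 0.216) and the alpha-cell gene STE3 (3.79 ± 0.189; SD, n = 11 controls) were near the low end of the signals and the a-cell gene STE2 (7.51 ± 1.21) well above it. LEU2 read 5.43 to 5.65 on its 3 probe sets, in the middle of the range, although the strain lacks it. All signals of genes below are log2 values after quantile normalization, every difference is in log2 units of treated minus control, and signals of different genes are not compared, since each probe set has its own response.

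The control arrays fell into 2 sets by the ACT1 middle probe set, a split chosen after the data were seen. On days 6, 7, 9, 10 and 11 this signal was 4.48 to 5.26, and on days 1 to 5 and 8 it was 8.07 to 9.87. RPA190, the largest subunit of polymerase I, read 5.13, 5.85, 6.31, 6.17 and 4.58 on the low-signal days, against 7.39 to 7.84 on the high-signal days. RPA135, the second-largest subunit, read 4.44 to 5.86 against 7.40 to 7.99, and RPA49, which pairs with RPA34 on the enzyme, read 4.46 to 5.68 against 6.93 to 7.56. In these 3 genes the 2 sets of days stood well apart. The same lack of overlap held for RPC40 of the assembly platform, the shared subunit RPB8, RPB7 and RPB9 of polymerase II, and RPC34 and RPC31, which help polymerase III start transcription. In all, 9 of 32 genes (28.1%) were lower on the low-signal days without overlap, against 25.4% of all genes tested, and RPB11 alone was higher without overlap (7.87 to 8.49 against 7.27 to 7.52), against 12.1% of all genes tested. The sets overlapped for the other 22 genes, among them RPO31, the largest subunit of polymerase III (5.83 to 6.31 against 5.89 to 6.59), and RPC11 (7.81 to 8.50 against 7.98 to 8.19). RPA43, RPA34, RPA14 and RPA12 of polymerase I were also among the 22. The share of genes without overlap in either direction was 42.9% for polymerase I and 42.9% for polymerase II, against 37.5% of all genes tested. The days of the 2 sets also differ in the agents tested on them, and the part of the state of the RNA in these levels was not tested.

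**Figure D1:**
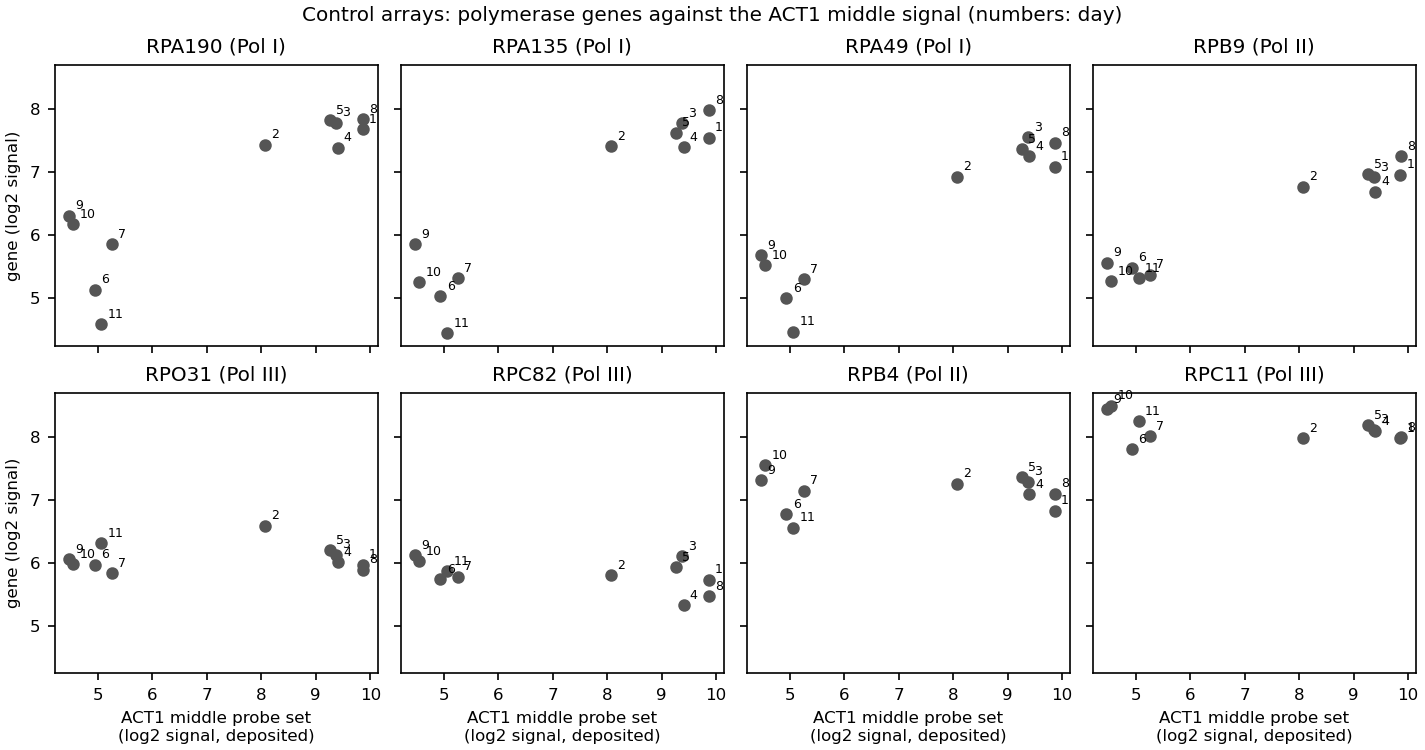
Signal of 8 polymerase genes (y axis, log2 after quantile normalization) against the ACT1 middle probe set (x axis, deposited log2 signal) in the 11 control arrays, each point numbered by its day. RPA190, RPA135, RPA49 and RPB9 sit lower on the 5 days with an ACT1 middle signal of 4.48 to 5.26, while RPO31, RPC82, RPB4 and RPC11 overlap between the sets of days.

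RPA190 has 7 probe sets, and they did not behave alike. Between the low-signal and the high-signal days they differed by -2.05 (the probe set used here) to 0.64, and for MMS minus the same-day control by -1.94 to 0.61. The mean difference ran from -0.69 to 0.07 with bleomycin (-0.37 for the probe set used) and from -2.06 to 0.35 with cisplatin (-1.07). It ran from -1.20 (the probe set used) to 1.55 with NaCl, and from -0.68 to 0.92 (the probe set used) with ethanol. Its values below are those of the brightest probe set only. RPA190 and the stalk gene RPA43 are next to each other in the genome (YOR341W and YOR340C on chromosome XV). RPA43 overlapped between the sets of control days (5.15 to 6.29 against 6.02 to 6.54).

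With MMS, 2 polymerase genes rose and 4 fell, and the smallest adjusted p was that of RPB5, a subunit shared by the 3 nuclear polymerases that sits where the downstream DNA enters. A gene was called at an adjusted p under 0.05 (limma, day as a block, Benjamini-Hochberg over all genes tested), which 50.5% of all genes passed with MMS (33.5% higher and 17.0% lower), against 6 of 32 here. RPB5 read 5.95, 5.74 and 5.86 with MMS, against 8.17, 7.33 and 8.32 in the controls of the same days. All 3 MMS arrays lay below the lowest of the 11 control arrays (7.33) and below the 10 arrays of the other agents. The limma difference was -2.09 ± 0.285 (SE), a 4.26-fold lower signal with an adjusted p = 0.000108. The call was kept with any 1 of these 6 arrays left out (limma, highest adjusted p = 0.00231). Leaving out either array of an MMS day takes that day out of the MMS difference, so the 6 refits amount to 3 checks.

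Of the other shared subunits, RPB10 was called with MMS. It read 7.79, 7.71 and 7.42, against 10.08, 8.37 and 10.44 in the same-day controls, and fell by 1.99 ± 0.716 (limma, adjusted p = 0.0358). RPO26 read 6.18, 6.40 and 6.26, against 8.31, 6.49 and 8.24. Its difference of -1.40 ± 0.591 missed the threshold (limma, adjusted p = 0.0667), and the control that came near the MMS arrays was control replicate 11. RPB8 (0.16 ± 0.382) and RPC10 (-0.05 ± 0.883) were not called either. The 5 subunits shared by all 3 polymerases had a median of -1.40, against 0.29 over all genes tested.

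Of polymerase III, RPC37 and RPC34 rose and RPC11 fell. RPC37, which forms a pair with RPC53, read 7.22, 7.15 and 7.06 with MMS, against 6.27, 4.82 and 6.34 in the controls (1.33 ± 0.335, limma, adjusted p = 0.00615). RPC34, which contacts the initiation factor TFIIIB, read 4.28, 4.23 and 4.39, against 3.37, 3.19 and 3.41 (0.98 ± 0.361, adjusted p = 0.039), at signals near the filter of 3.786. RPC11, which is needed for the enzyme to cleave its transcript and end transcription, read 6.80, 6.88 and 6.93, against 8.50, 8.26 and 8.45 (-1.53 ± 0.424, adjusted p = 0.0101). In each of the 3 genes the MMS and control arrays of these days did not overlap, and RPC11 was also below all 11 control arrays. RPO31 read 5.95, 5.98 and 5.99 with MMS, against 5.98, 6.31 and 6.06, and RET1, the second-largest subunit, 7.33, 7.92 and 7.68, against 7.77, 6.73 and 7.99. Neither core gene was called (-0.14 ± 0.369 and 0.15 ± 0.463).

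Of polymerase II only RPB11 was called with MMS, and no gene of polymerase I was. RPB11, which pairs with RPB3 in the assembly platform, read 7.57, 7.10 and 7.42, against 8.07, 8.49 and 7.96, and fell by 0.81 ± 0.27 (limma, adjusted p = 0.0261). RPO21, the largest subunit of polymerase II, read 7.53, 7.64 and 7.48, against 7.35, 8.53 and 7.45. RPB2, the second-largest, read 8.02, 8.08 and 8.32, against 7.69, 5.33 and 7.70, so its MMS arrays all lay above all 11 controls but its difference of 1.23 ± 0.696 was not called (adjusted p = 0.159). RPA190 read 6.07, 6.21 and 6.24, against 6.17, 4.58 and 6.31, and RPA135 read 5.36, 5.31 and 5.46, against 5.25, 4.44 and 5.86. Both polymerase I genes lay within the same-day controls' range. RPB4, the partner of RPB7 in the stalk, read 8.06, 8.07 and 8.08, against 7.55, 6.56 and 7.32 (0.93 ± 0.415, adjusted p = 0.0822). RPC25 of the polymerase III stalk read 5.41, 5.46 and 5.43, against 6.03, 5.54 and 6.49 (-0.59 ± 0.283, adjusted p = 0.105). The 26 genes not called ran from -1.40 (RPO26) to 1.23 (RPB2). The MMS arrays lay outside the range of all 11 controls for 8 of 32 genes, 5 below (RPB5, RPO26, RPB10, RPC25 and RPC11, against 13.2% of all genes) and 3 above (RPB2, RPB4 and RPC37, against 28.6%).

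How polymerase I stood with MMS depended on which controls it was set against. The 3 MMS arrays had ACT1 5′ signals of 8.35 to 8.83, while their same-day controls had 4.76 to 5.93 and belonged to the low-signal days. A limma fit with the class of the ACT1 5′ signal (under or over 7.5) in place of the day, which sets MMS against controls of the high class, called 13 of 32 genes, 2 higher and 11 lower (40.2% of all genes called, 24.7% higher and 15.5% lower). In it RPA135 (-2.15 ± 0.663, adjusted p = 0.0128), RPA43 (-0.87 ± 0.228, adjusted p = 0.00436) and RPA34 (-1.67 ± 0.342, adjusted p = 0.000486) fell, and RPA190 fell by 1.34 ± 0.533. The polymerase I median was -1.01 there, against 0.08 with the day as a block. RPB5 was -2.03 ± 0.236 in this fit (limma, adjusted p = 6.37e-07) and -2.34 ± 0.206 with the low-3′ arrays left out (adjusted p = 1.11e-06). That last fit called 4 polymerase genes higher and 11 lower (36.9% and 25.9% of all genes). It leaves MMS replicate 2 without a control of its day, so its MMS differences rest on replicates 1 and 3. Its errors were also smaller, for RPC37 0.184, against 0.335 with all arrays. RPB10, RPC37 and RPC11 were called the same way in all 3 fits. With median scaling in place of quantile normalization, which moved the median of all genes by 0.11, RPB5 (-1.78, adjusted p = 0.00179) and RPC37 (1.65, adjusted p = 0.00154) were still called, RPB4 rose, and no other gene was called.

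**Figure D2:**
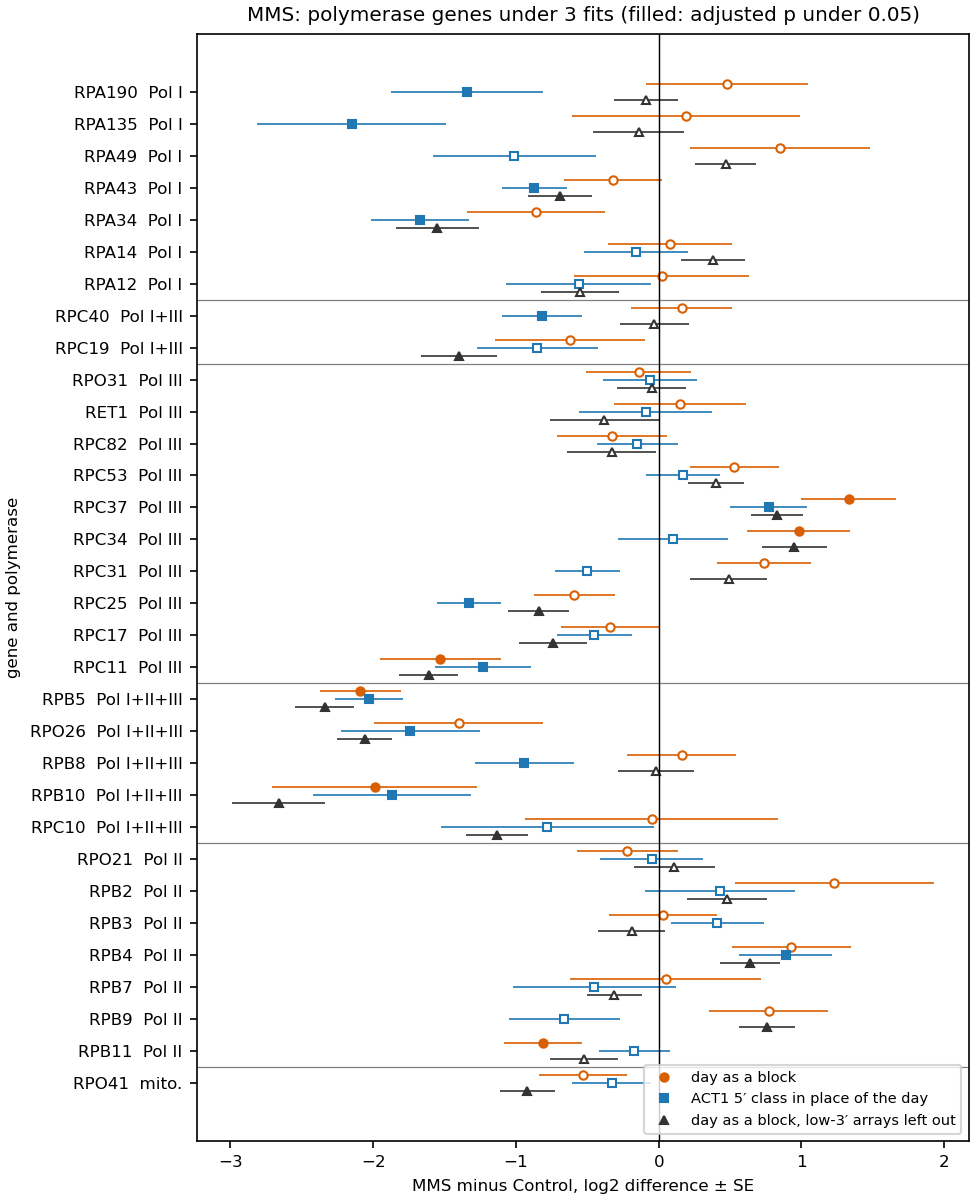
MMS minus Control (x axis, log2 difference with its SE) for the 32 genes, grouped by polymerase (y axis), in 3 limma fits; filled symbols have an adjusted p under 0.05. RPB5 stays near -2 in all 3 fits (-2.09, -2.03 and -2.34), while RPA190 and RPA135 lie at 0.48 and 0.19 with the day as a block and at -1.34 and -2.15 in the fit by ACT1 5′ class.

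With 1 array left out, the other MMS calls were less steady than that of RPB5 (limma). Here too an MMS day drops out whole when either of its 2 arrays is left out. RPC37 and RPB11 were lost without control replicate 11 (adjusted p = 0.0737 for RPC37) or without MMS replicate 2 (adjusted p = 0.206 for RPB11). RPC11 was lost where either control replicate 10 or the first MMS replicate was absent (adjusted p = 0.0549 for the second case), RPB10 without any of 4 arrays (highest adjusted p = 0.201 without MMS replicate 3) and RPC34 without any of the 6 (highest adjusted p = 0.13).

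With NaCl, RPO21 rose and 8 polymerase genes fell, but for most genes NaCl replicate 1 and the other NaCl arrays went opposite ways. Of all genes, 51.7% were called with NaCl (14.1% higher and 37.6% lower), against 9 of 32 here. RPO21, whose tail carries the marks that guide messenger RNA processing, read 8.08, 9.39 and 9.23 with NaCl, against 7.14, 7.85 and 6.91 in the same-day controls (1.67 ± 0.341, limma, adjusted p = 0.00381). All 3 differences were positive. RPB7, which with RPB4 forms the stalk of polymerase II, read 8.02, 4.68 and 3.31, against 8.49, 8.38 and 8.41 (-3.05 ± 0.648, adjusted p = 0.00448). It was lower on each day, 8.27-fold in the fit, with the smallest difference in replicate 1 (-0.47). These were the NaCl calls kept with any 1 of the 3 NaCl arrays and their 3 controls left out (limma, highest adjusted p = 0.0409 for RPO21 and 0.0478 for RPB7).

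RPA135 read 8.12, 4.16 and 3.65 with NaCl, against 7.42, 7.40 and 7.78 (-2.16 ± 0.773, limma, adjusted p = 0.0354). RPA190 read 8.17, 5.42 and 5.42, against 7.44, 7.39 and 7.79 (-1.15 ± 0.551, adjusted p = 0.0959). In both, replicate 1 lay above the 11 control arrays and the other 2 replicates lay well below their own controls. RPB2 had the same shape, with 7.87, 5.38 and 4.35, against 7.39, 7.65 and 7.72 (-1.62 ± 0.673, adjusted p = 0.0612). The other genes called lower were RPB10 (-2.0), RPO26 (-1.55) and RPB8 (-1.23) of the shared subunits, RPB9 (-1.45) and RPB3 (-1.02) of polymerase II, and RPC11 (-1.30). The 23 genes not called ran from -2.12 (RPC10) to 0.87 (RPA14), the core genes of polymerase III among them. RPO31 read 8.13, 5.90 and 6.05, against 6.59, 6.01 and 6.13, and RET1 read 8.27, 7.07 and 7.93, against 7.63, 7.85 and 7.72.

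In NaCl replicate 1, 29 of 32 genes were higher than in the control of the day, and in replicates 2 and 3, 27 of 32 were lower each. Of all genes, 55.9%, 66.6% and 67.5% were lower in the 3 arrays. The ACT1 3′ signal was 10.97 in replicate 1 and 7.98 and 8.21 in the others, and its part in the result was not tested. Without the low-3′ arrays, where replicate 1 alone stands for NaCl and is taken to vary like the other groups, limma called 7 genes higher and 0 lower (7.12% and 9.65% of all genes). They were RPA49, RPA34, RPA12, RPC10, RPO31 (1.76 ± 0.31, adjusted p = 0.00283), RPC82 and RPC37, and none of the 9 genes above was among them. In replicate 1 against its own control, RPO21 differed by 0.94 and RPB7 by -0.47. No polymerase gene had all 3 NaCl arrays outside the range of the 11 controls (5.20% of all genes below and 2.19% above). The number of polymerase genes called by limma with the day as a block, 9 with all arrays, was 24 without NaCl replicate 1. It was 2 without control replicate 3 or without either NaCl replicate 2 or 3. The share of all genes called in these refits is not given.

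**Figure D3:**
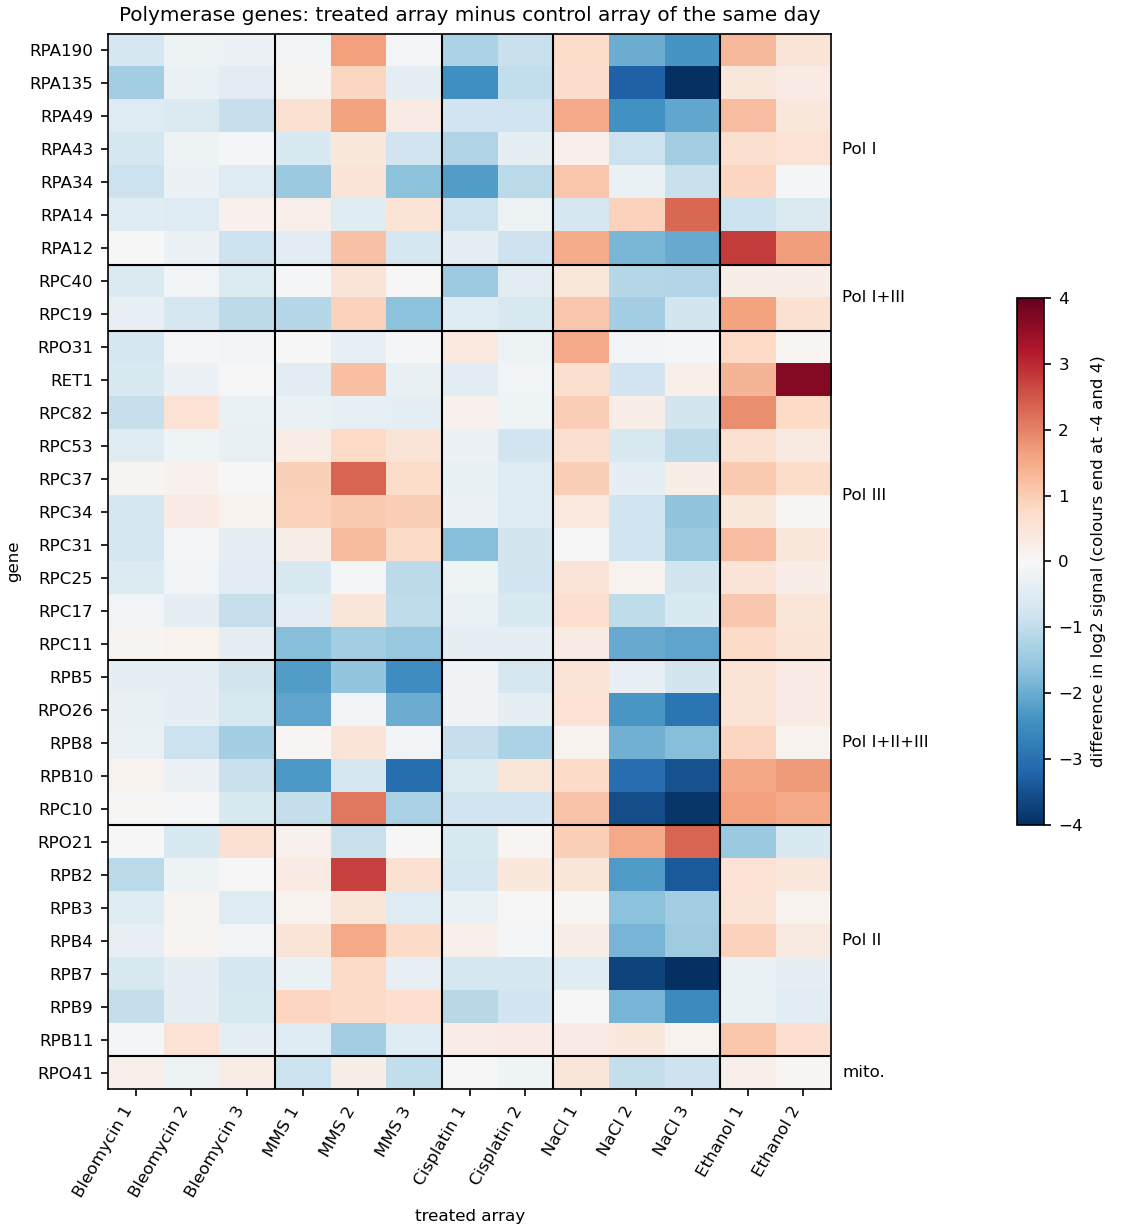
Difference in log2 signal between each of the 13 treated arrays (columns, by agent) and the control array of its day for the 32 genes (rows, by polymerase), red for higher and blue for lower, with colours ending at -4 and 4. NaCl replicate 1 is mostly red (29 of 32 higher) beside NaCl replicates 2 and 3 (27 of 32 lower each); the RPB5 row is blue in all 3 MMS arrays, and 27 rows are red in both ethanol arrays.

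With ethanol, RET1 was the 1 polymerase gene called, and most of the others were higher on both days without passing the test. Of all genes, 5.03% were called with ethanol (3.83% higher). RET1 read 8.61 and 8.40 with ethanol, against 7.24 and 4.73 in the same-day controls (2.52 ± 0.567, limma, adjusted p = 0.0297). Both ethanol arrays lay above the highest of the 11 controls (7.99), while the second same-day control, control replicate 7, was the lowest of the 11 by far. The difference was 1.37 (adjusted p = 0.462) without control replicate 7, and the call was also lost without ethanol replicate 2, since day 7 then drops out. In the fit by ACT1 5′ class RET1 was not called, and RPA12, RPB11, RPC82 and RPC37 were called higher (7.62% of all genes).

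RPA12, which lets polymerase I cleave its transcript, read 8.83 and 8.86 with ethanol, against 6.03 and 7.18 in the same-day controls. Both arrays were above all 11 controls (highest 7.35), and the difference of 2.24 ± 0.749 had an adjusted p = 0.107 (limma). RPA190 read 6.43 and 6.38, against 5.13 and 5.85, and RPA135 read 5.46 and 5.63, against 5.03 and 5.31. RPO31 read 6.75 and 5.93, against 5.97 and 5.83, and RPB2 read 7.71 and 7.82, against 7.11 and 7.36. These 4 core genes were higher on both days, none of them called. RPO21 went the other way, with 6.94 and 6.90, against 8.42 and 7.52 (-1.05 ± 0.432, adjusted p = 0.166).

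In all, 27 of 32 genes were higher with ethanol on both days, against 46.4% of all genes, and RPA14, RPO21, RPB7 and RPB9 were lower on both. All 10 genes of polymerase III and all 5 shared subunits were among the 27. Both ethanol arrays lay above all 11 control arrays for 11 of 32 genes, against 16.7% of all genes. RPB9 was below all 11 (9.42% of all genes). The 11 genes above were RPA12, RPC19, RPB5, RPB10, RPC10, RPB11, RET1, RPC82, RPC37, RPC17 and RPC11. RPB5, the gene with the largest fall with MMS, read 8.56 and 8.80 with ethanol, against 7.33 to 8.46 over the 11 controls. The 31 genes not called ran from -1.05 (RPO21) to 2.24 (RPA12). With the low-3′ arrays left out, none of which shares a day with ethanol, limma called 15 genes higher and 2 lower (26.6% and 16.0% of all genes). The RPA12 difference was then 2.24 ± 0.273 (adjusted p = 0.000101), with the same estimate and a smaller error.

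With cisplatin no polymerase gene was called (0.464% of all genes were, limma with the day as a block). An unadjusted limma p under 0.05 was found for 3 of 32, RPA34, RPB8 and RPC31, all lower, against 651 of all 5171 genes tested. RPA190 read 6.43 and 6.96 with cisplatin, against 7.69 and 7.83 in the same-day controls, and RPA135 read 5.10 and 6.63, against 7.55 and 7.63. Both polymerase I core genes were lower on both days, with limma differences of -1.14 ± 0.663 (adjusted p = 0.514) and -1.81 ± 0.931 (adjusted p = 0.462). RPA34 read 5.19 and 6.73, against 7.43 and 7.81 (-1.65 ± 0.566, adjusted p = 0.241). RPO21 read 7.56 and 6.99, against 8.18 and 6.90, RPB2 read 7.06 and 7.93, against 7.72 and 7.52, and RPO31 read 6.37 and 6.0, against 5.97 and 6.20. RET1 read 7.39 and 7.61, against 7.82 and 7.71. Unlike the polymerase I pair, RPO21, RPB2 and RPO31 did not keep 1 sign on both days.

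All 7 polymerase I genes were lower than their controls on both cisplatin days, and 25 of 32 genes in all were, against 39.6% of all genes. Cisplatin replicate 1 had an ACT1 5′ signal of 5.18, against 10.56 in its control, and replicate 2 had 9.33, against 9.46. In replicate 2, where the 5′ signals were close, RPA190 differed by -0.88 and RPA135 by -1.0 from the control, against -1.26 and -2.44 in replicate 1. With the low-3′ arrays left out, limma called 11 genes lower and 0 higher with cisplatin (12.9% and 6.92% of all genes). Those 11 included RPA190 (-1.09 ± 0.214, adjusted p = 0.00557), RPA135 (-1.72 ± 0.305, adjusted p = 0.00371), RPA49, RPA43 and RPA34 of polymerase I. None of the low-3′ arrays shares a day with cisplatin, and the errors were smaller in that fit. In the limma fit by ACT1 5′ class no polymerase gene was called with cisplatin (1.24% of all genes were). The polymerase I median was -0.53 there, against -0.84 with the day as a block. Both cisplatin arrays lay below all 11 controls for RPA14 and RPC11 (1.82% of all genes) and above them for no polymerase gene (5.12%). The 32 differences ran from -1.81 (RPA135) to 0.44 (RPB11).

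With bleomycin no polymerase gene was called (1.86% of all genes were, limma with the day as a block). An unadjusted limma p under 0.05 was found for 2 of 32, RPB8 and RPB9, against 532 of all 5171 genes tested. RPB8 read 8.86, 8.90 and 8.35 with bleomycin, against 9.12, 9.76 and 9.70 in the same-day controls (-0.89 ± 0.363, adjusted p = 0.405). RPB9, which helps polymerase II choose start sites and keep its accuracy, read 5.82, 6.30 and 6.32, against 6.77, 6.69 and 6.97 (-0.87 ± 0.394, adjusted p = 0.476). Both were lower on each of the 3 days. RPA190 read 6.76, 7.19 and 7.59, against 7.44, 7.39 and 7.83, and RPA135 read 6.03, 7.14 and 7.17, against 7.42, 7.40 and 7.63. The 95% interval of the RPA135 difference ran from -2.79 to 0.52 and that of RPA190 from -1.78 to 0.58, so a fall of over 1 log2 unit lies inside both. RPO21 read 7.11, 7.26 and 7.5, against 7.14, 7.85 and 6.90, and RPB2 read 6.30, 7.46 and 7.53, against 7.39, 7.65 and 7.52. RPO31 read 5.92, 5.97 and 6.08, against 6.59, 6.01 and 6.20, and RET1 read 7.01, 7.61 and 7.69, against 7.63, 7.85 and 7.71. RPO31 and RET1 were lower on all 3 days, RPO21 and RPB2 were not. No polymerase gene had all 3 bleomycin arrays outside the range of the 11 controls (1.62% of all genes below and 5.61% above), and the 32 differences ran from -1.14 (RPA135) to 0.11 (RPC37). In all, 19 of 32 genes were lower on each day and 1 (RPC37) was higher, against 25.9% and 20.2% of all genes. With the low-3′ arrays left out, RPA49, RPB8, RPB7 and RPB9 were called lower and none higher (5.07% and 5.80% of all genes).

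**Figure D4:**
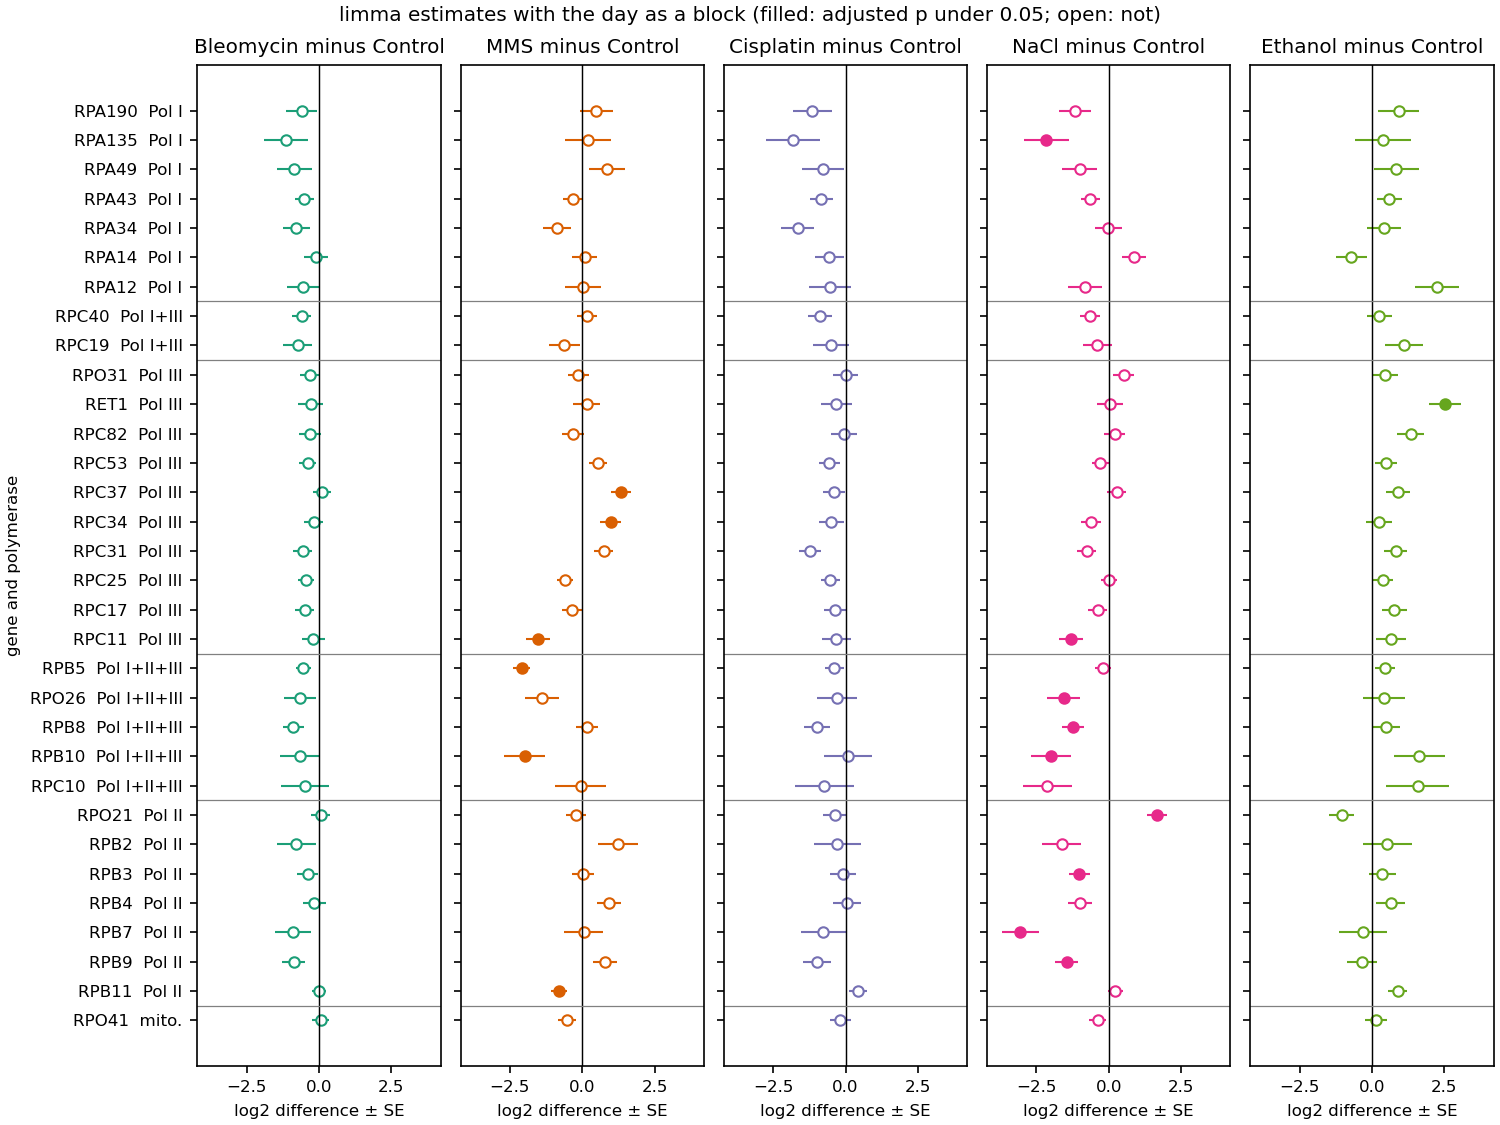
Agent minus Control (x axis, log2 difference with its SE, limma with the day as a block) for the 32 genes (y axis, by polymerase), 1 panel for each agent; filled points have an adjusted p under 0.05. The filled points number 0 with bleomycin, 6 with MMS, 0 with cisplatin, 9 with NaCl and 1 with ethanol.

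The differences between agents were tested in the same fit. For MMS minus bleomycin, a pair of DNA-damaging agents, 3 of 32 genes were called, against 36.3% of all genes (25.9% higher and 10.4% lower). RPB5 was lower (-1.56 ± 0.393, limma, adjusted p = 0.00982), a call kept with any of the 12 arrays left out (highest adjusted p = 0.0451) but not with median scaling (-1.14, adjusted p = 0.0909) or on the deposited values (-1.23, adjusted p = 0.0513). RPB9 (1.64 ± 0.572, adjusted p = 0.0419) and RPC31 (1.32 ± 0.455, adjusted p = 0.0405) were higher. The RPB9 call was lost without 1 array for 10 of the 12, and the RPC31 call for 7 of the 12. In the fit by ACT1 5′ class RPB5 was -1.52 ± 0.278 (adjusted p = 0.000281), and neither RPB9 nor RPC31 was called. For NaCl minus ethanol, 7 of 32 genes were called, against 36.0% of all genes (9.77% higher and 26.2% lower). RPO21 was higher by 2.72 ± 0.55 (limma, adjusted p = 0.0142), and RPB10 (-3.63), RPA12 (-3.07), RET1 (-2.46), RPC11 (-1.97), RPB8 (-1.72) and RPC31 (-1.59) were lower. With the low-3′ arrays left out, NaCl replicate 1 alone stands for NaCl. The RPO21 difference was then 1.99, and whether the 7 calls hold cannot be judged from 1 NaCl array. None of these 7 calls held when each array of the 2 agents and their controls was left out in turn. The number of polymerase genes called ran from 0 without control replicate 7 or ethanol replicate 2 to 27 without NaCl replicate 1. The share of all genes called in these refits is not given.

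Set beside each other, the polymerases were described by the median difference of their own genes. The median of the polymerase I genes minus that of the polymerase II genes was -0.58 and -0.81 in the 2 cisplatin arrays against their controls. It was 0.31 in both ethanol arrays, -0.20, -0.05 and -0.07 in the bleomycin arrays, and -0.29, 0.11 and -0.43 in the MMS arrays. With NaCl it was 0.46, 0.05 and -0.61. The polymerase III median exceeded that of polymerase II by 0.37, 1.17 and 0.69 in the 3 NaCl arrays and by 0.37 and 0.29 in the ethanol arrays. It was -0.34, -0.13 and -0.22 in the MMS arrays, and the signs were mixed with bleomycin (-0.10, 0.13 and 0.11) and cisplatin (0.37 and -0.50). Only with cisplatin did the polymerase I median lie below that of polymerase II by more than 0.5 on every day. These medians over 7 to 10 genes carry no test of the difference. The fitted polymerase I minus polymerase II difference with ethanol (0.25) was -0.03 under both other scalings, -0.75 without a block, -0.71 with a random block and -0.05 by ACT1 class.

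In the fit with the day as a block, the 3 medians lay farthest apart with NaCl and cisplatin. With cisplatin they were -0.84 for polymerase I, -0.37 for polymerase III and -0.28 for polymerase II, against -0.07 over all genes. With bleomycin they were -0.60, -0.31 and -0.39, against -0.08. With NaCl they were -0.83, -0.15 and -1.02, against -0.45, and with ethanol 0.60, 0.72 and 0.35, against 0.14. The NaCl medians join arrays that went opposite ways. Against the same-day control they were 0.73, 0.64 and 0.27 in NaCl replicate 1. They were -1.82, -0.70 and -1.87 in replicate 2, and -2.03, -0.73 and -1.42 in replicate 3. Without the low-3′ arrays, which leaves replicate 1, the NaCl medians were 0.99, 0.73 and 0.38. With MMS the fitted medians were 0.08, 0.00 and 0.05, all below the 0.29 over all genes. The control arrays alone spread widely for polymerase I, with a median range of 2.19 over the 11 controls, against 2.07 for the subunits shared by all 3, 2.06 for those of I and III, 1.55 for polymerase III, 1.36 for polymerase II and 1.44 over all genes.

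**Figure D5:**
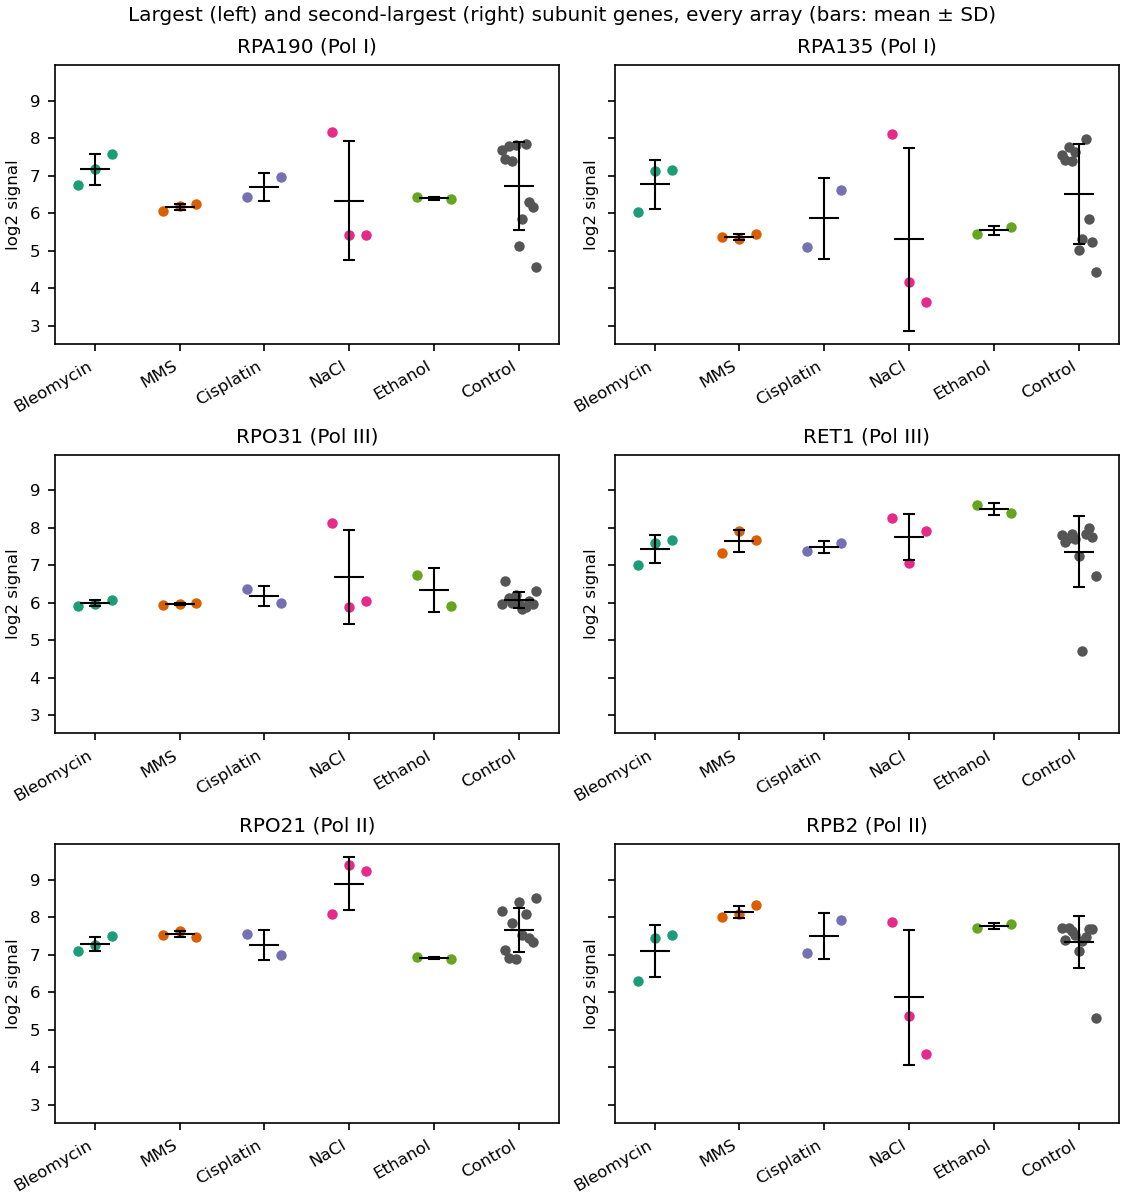
Log2 signal (y axis) of the largest (left column) and second-largest (right column) subunit genes of polymerases I, III and II in all 24 arrays, by agent and Control (x axis); bars give mean and SD. RPA190 and RPA135 spread over 4.58 to 7.84 and 4.44 to 7.99 in the 11 controls, RET1 spans 4.73 to 7.99 and RPO31 stays within 5.83 to 6.59 there; NaCl replicate 1 is the highest RPA190, RPA135 and RPO31 array.

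Factors that work with the polymerases were counted from lists of known members. With MMS, 3 of 8 tested polymerase I factors rose and 1 fell, 8 of 20 general factors of polymerase II rose and 1 fell, 3 of 9 polymerase III factors rose and 2 fell, and 3 of 8 assembly and import factors rose and 0 fell, against 33.5% higher and 17.0% lower of all genes. The factor with the largest difference was SSL2, a DNA translocase of TFIIH that acts both in starting transcription and in nucleotide excision repair. It read 6.40, 6.70 and 6.88 with MMS, against 2.95, 2.54 and 2.96 in the same-day controls, so the groups did not overlap. SSL2 passed the filter on low signal only through its MMS arrays (mean 3.81 over 24 arrays and 3.40 without MMS, with the filter at 3.786), so its values are a description, with no test, although it is among the 8 general factors counted above. The same holds for BDP1, 1 of the 3 polymerase III factors counted as rising, whose mean without MMS is also under the filter. BDP1 read 4.45, 4.48 and 4.47 with MMS, against 4.09, 2.95 and 3.82 in the same-day controls. With NaCl the numbers were 2 higher and 1 lower, 2 and 8, 1 and 5, and 0 and 1 for the same 4 lists, against 14.1% higher and 37.6% lower of all genes. TOA2, the small subunit of TFIIA, changed most among them, with 7.07, 3.04 and 3.79, against 8.18, 8.16 and 8.00 (-3.42 ± 0.617, adjusted p = 0.00232). It was lower in all 3 NaCl arrays, with the smallest difference in replicate 1 (-1.12). The limma fit without the low-3′ arrays, where replicate 1 alone stands for NaCl, gave -1.03 for TOA2. In that fit the NaCl medians of the 4 lists were 0.60, 0.04, -0.05 and 0.56, against -0.05 over all genes. With all arrays they were 0.06, -0.57, -0.76 and -0.21, against -0.45. With the day as a block, no factor was called with bleomycin, cisplatin or ethanol (1.86%, 0.464% and 5.03% of all genes). Without the low-3′ arrays, 2 polymerase I, 6 polymerase II, 1 polymerase III and 4 assembly factors were higher with ethanol (26.6%). Lower were 1 polymerase I factor with ethanol (16.0%), and 1 of polymerase I and 2 of II with bleomycin (5.07%). With cisplatin 1 each of polymerases II and III was lower (12.9%). By ACT1 5′ class, 2 polymerase I, 1 polymerase II and 3 assembly factors were higher with ethanol (7.62%).

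RPO41, which transcribes the mitochondrial genome, was called with no agent when the day was a block. It read 5.83, 5.90 and 5.81 with MMS, against 6.70, 5.66 and 6.78 (-0.53 ± 0.308, limma, adjusted p = 0.167), and 6.85, 5.18 and 5.52 with NaCl, against 6.38, 6.14 and 6.34. It read 6.57, 5.95 and 6.57 with bleomycin, against 6.38, 6.14 and 6.26. It read 6.30 and 6.08 with cisplatin, against 6.31 and 6.26, and 6.64 and 6.34 with ethanol, against 6.42 and 6.26. The MMS arrays were below their controls on 2 of 3 days, and control replicate 11 was the exception. Without the low-3′ arrays, where the MMS difference rests on MMS replicates 1 and 3, it was -0.92 ± 0.191 (limma, adjusted p = 0.00104). MTF1, its initiation factor, fell with NaCl (-1.92 ± 0.419, limma, adjusted p = 0.00491), where 37.6% of all genes were called lower. The same-day differences were -0.77, -2.33 and -2.66 for NaCl replicates 1, 2 and 3. Without the low-3′ arrays, where replicate 1 alone stands for NaCl, the MTF1 difference was -0.72.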

How the data were processed

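The authors deposited 1 log2 signal per probe set and array. How these were summarised and normalized from the scans is not given in the sources used here, and the array medians ran from 5.33 to 5.63. Of 9335 probe sets, 60 controls were left out, 6504 had 1 gene symbol, 328 several and 2443 none, and symbols were updated by gene ID through the RefSeq table for R64. The deposited values were quantile-normalized, and the brightest probe set stood for each gene. Genes with a mean under 3.786 (the 20th percentile) were left out. limma 3.58.1 in R 4.3.3 fitted the log2 values of all 24 arrays with agent and day as terms (8 residual degrees of freedom, trended eBayes, prior 3.8), with Benjamini-Hochberg adjustment over 5171 genes. Figures were drawn with matplotlib 3.10.9. The script was tested on simulated data. Values were given in every array for the largest and second-largest subunits and for the called genes with the 2 largest rises and 2 largest falls per agent, and for the called factor with the largest change. Other values shown as examples were chosen after they were seen. The genes and lists were chosen with earlier results of these data known, and the split of control days and the medians by polymerase were added after seeing the data. The alternatives tried were other scalings, filters, probe set rules and blocks, the ACT1 class, and leaving out arrays. The labels do not state that arrays of a group came from separate cultures, so p-values measure only the spread between these arrays, and their number limits the precision.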

Additional observations from a re-analysis of the deposited data

How the results depend on the processing

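The number of polymerase genes called (main counts 0, 6, 0, 9 and 1 for bleomycin, MMS, cisplatin, NaCl and ethanol, 3 for MMS minus bleomycin and 7 for NaCl minus ethanol) moved by over 1.5 times as follows. Without the low-3′ arrays it was 4, 15, 11, 17 and 14 for bleomycin, MMS, cisplatin, ethanol and MMS minus bleomycin. Of all genes, 10.9%, 62.8%, 19.8%, 42.6% and 54.0% were called there. That fit leaves 1 NaCl array, so no count is given for NaCl minus ethanol. With the ACT1 5′ class in place of the day it was 13 for MMS, 4 for ethanol and 17 for NaCl minus ethanol. Of all genes, 40.2%, 11.7% and 38.1% were called there. Without a day block, or with a random one, it was 3 for ethanol and 15 for NaCl minus ethanol, with the share of all genes not given. Median scaling gave 3 for MMS (2 higher and 1 lower, against 2 and 4), and 5 for MMS minus bleomycin (5 higher and 0 lower, against 2 and 1), as did the deposited values. Of all genes, median scaling called 38.9% higher and 17.9% lower with MMS. For MMS minus bleomycin it called 31.9% and 12.2%, and the deposited values 31.0% and 13.0%. For NaCl minus ethanol the 2 scalings gave 14 and 11, and ethanol replicate 1 as a day of its own gave 1, with the share of all genes not given for that last setting. Of all genes, the 2 scalings called 9.80% and 13.1% higher, and 34.7% and 27.4% lower. On the deposited values MMS had 4 calls (3 higher and 1 lower, against 38.4% and 19.2% of all genes). Relative to quantile normalization the median of all genes moved by 0.15 for MMS minus bleomycin and -0.11 for NaCl minus ethanol with median scaling, and by 0.14 for NaCl and 0.17 for NaCl minus ethanol on the deposited values. With 1 array left out, the counts ran from 0 to 0 for bleomycin, 3 to 5 for MMS, 0 to 0 for cisplatin, 2 to 24 for NaCl, 0 to 1 for ethanol, 1 to 5 for MMS minus bleomycin and 0 to 27 for NaCl minus ethanol. Shares of all genes are not given for these refits. With MMS the difference turned sign for 11 of 32 genes in the ACT1 class fit, among them RPA190 (-1.34) and RPA135 (-2.15), and for 9 without the low-3′ arrays, among them RPA190 (-0.09) and RPA135 (-0.14). For MMS minus bleomycin it turned for 17 in the class fit, among them RPB9 (-0.35) and RPC31 (-0.09). With NaCl it turned for 7 in the class fit and for 24 without the low-3′ arrays, among the second RPA190 (0.87), RPA135 (0.99), RPB2 (0.78), RPC10 (1.0), RPB10 (0.48), RPB9 (0.15), RPA12 (1.33), RPO26 (0.52), RPB3 (0.16) and RPC11 (0.24). The share of all genes that turned sign is not given, so these counts do not set the polymerase genes apart. The polymerase I minus polymerase II median moved by more than the SD between days for bleomycin (-0.20) to 0.12 without a day block, 0.13 with a random block, 0.15 by ACT1 class and -0.07 without the low-3′ arrays. For MMS (0.04) the same 4 settings gave -0.47, -0.47, -0.97 and -0.25, and for cisplatin (-0.57) the first 3 gave -0.31, -0.28 and -0.27. For NaCl (0.19) the ACT1 class gave 1.12. For ethanol (0.25) both scalings gave -0.03, no block -0.75, a random block -0.71, the mean of probe sets 0.06, the ACT1 class -0.05 and a day of its own 0.31. The polymerase III minus polymerase II median moved for bleomycin (0.08) to 0.25 by ACT1 class, and for NaCl (0.87) to 0.34 without the low-3′ arrays. For MMS (-0.04) it was -0.24 with both scalings, 0.11 and 0.08 without and with a random block, and -0.30 without the low-3′ arrays. For ethanol (0.36) these gave 0.05 with both scalings and -0.02 without or with a random block, while the ACT1 class gave 0.15 and a day of its own 0.29. With 1 array left out, the polymerase I difference ran from -0.44 to -0.16 for bleomycin, -0.25 to 0.08 for MMS, -0.69 to -0.45 for cisplatin, -0.23 to 0.53 for NaCl and 0.31 to 0.31 for ethanol. The polymerase III difference ran from -0.09 to 0.23, -0.30 to -0.09, -0.36 to 0.37, 0.54 to 1.11 and 0.29 to 0.37 for the same agents. The cause of these changes was not tested. Treated and control arrays were matched by day, the block of the fit reported. By replicate number, no paired analysis was possible because these numbers follow the order of the samples and pair no arrays.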
